A study of Mus musculus with 24 samples.

Results

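RNA sequencing of the mouse dentate gyrus was used to ask which transcripts set every APP/PS1 group apart from wild type (WT), whatever the treatment. The 24 libraries of the series comprise 19 APP/PS1 libraries in 4 groups and 5 WT libraries, all of which were compared here. The WT mice were C57BL6/J and labelled as control; whether they had the vehicle is not stated. The APP/PS1 groups were an untreated control (5 libraries), mice on the drug BCI-838 at 5 mg/kg daily by mouth for 1 month (4 libraries), mice with free access to a running wheel for 1 month (5 libraries) and mice with both (5 libraries). The untreated APP/PS1 group is labelled as control, and untreated here means without drug or wheel. The titles of that group do not name a vehicle. Libraries were assigned by their labels, and each of the 4 APP/PS1 groups was given the same weight. The design text plans 5 mice per group. Age, sex, the transgene construct and the background strain of the APP/PS1 line were not given in the sources used here. No WT group had the drug or the wheel, so a treatment effect in WT mice was not measured.

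APP/PS1 mice carry an amyloid precursor protein transgene, together with another transgene, and deposit amyloid plaques with age. The amyloid precursor protein is cut by beta-secretase and then by gamma-secretase to release the amyloid-beta peptide. In commonly used APP/PS1 lines the transgenes are driven by a promoter construct of the mouse prion protein gene. Around plaques, microglia and astrocytes take on an altered expression state that includes Trem2-dependent and complement genes. The dentate gyrus holds the granule cells of the hippocampus and a niche that adds neurons in adult life, and BCI-838 is an orally active pro-drug whose product blocks mGluR2 and mGluR3, receptors that dampen glutamate release.

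The genes on which the comparison turned were Prnp and App, whose endogenous promoters are shown because the transgene constructs of such lines borrow the first and encode the product of the second. The sequences are from RefSeq (GRCm38.p6), read 5′ to 3′ on the strand of the gene, and end at the base before the first exon annotated by GENCODE, which left out the 59 bases nearest the RefSeq start of App. The Prnp stretch covers chr2:131909678-131909927 on the plus strand and the App stretch chr16:85173767-85173957 on the minus strand. Capitals mark GC boxes, searched as GGGCGG on both strands.
Prnp: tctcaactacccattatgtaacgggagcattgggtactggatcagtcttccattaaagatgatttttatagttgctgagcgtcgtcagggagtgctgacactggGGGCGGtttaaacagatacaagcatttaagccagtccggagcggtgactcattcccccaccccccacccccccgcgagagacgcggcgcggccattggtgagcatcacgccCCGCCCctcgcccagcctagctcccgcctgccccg
App: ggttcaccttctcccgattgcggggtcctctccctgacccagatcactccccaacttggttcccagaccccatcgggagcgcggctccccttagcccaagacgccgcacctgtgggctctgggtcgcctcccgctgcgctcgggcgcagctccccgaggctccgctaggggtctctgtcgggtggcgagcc
The Prnp stretch held 2 GC boxes, and 32.9% of 27025 RefSeq promoters held at least 1 in the same 250 bases. The App stretch held 0, against 23% of promoters with at least 1 in the same 191 bases. G and C made up 58.8% of the Prnp stretch and 69.6% of the App stretch, where the medians over all promoters were 52.0% and 51.3%. The motif TATAAA, on both strands, was found 1 time in the Prnp stretch and 0 times in the App stretch, and in 13% and 9.13% of promoters over these lengths. These matches describe the letters only.

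Total counts ran from 48656360 to 64632882 per library, and 18286 of 26667 genes had enough reads to be tested. Levels are given as CPM (read counts scaled to a fixed library total), with TMM factors. The granule cell markers Prox1, C1ql2 and Dsp were detected in all libraries, with the lowest levels in WT replicate 3 (14.3, 14.3 and 4.32 CPM). The other WT libraries held 58.6 to 151 CPM of Prox1, 122 to 299 CPM of C1ql2 and 54.8 to 193 CPM of Dsp. WT replicate 3 thus held little granule cell RNA beside the rest of its group. Among APP/PS1 libraries, untreated replicate 3 held 37.0 CPM of Prox1, 83.7 CPM of C1ql2 and 24.9 CPM of Dsp. Dsp was also low in replicate 4 of the group with both treatments (12.5 CPM) and in BCI-838 replicates 2 to 4 (13.85 to 20.4 CPM). The libraries also differed in tissue from outside the dentate gyrus. Ttr, a choroid plexus transcript, lay above 100 CPM in replicates 2, 4 and 5 of the untreated APP/PS1 group and in replicate 5 of the group with both treatments (297 to 1615 CPM), and between 3.49 and 15.6 CPM in WT. Pax7, a dorsal midbrain transcription factor, ran from 0 to 16.1 CPM over all libraries. In bulk tissue, fewer cells of a type and less RNA per cell cannot be told apart.

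Prnp and App were the only genes called between pooled APP/PS1 and WT, both higher in APP/PS1. A call means a Benjamini-Hochberg adjusted p under 0.05 in the quasi-likelihood F test of edgeR over all genes tested. These 2 calls are 0.0109% of 18286 genes. No gene was called lower. At an unadjusted p under 0.05 there were 670 genes (3.66%), 268 higher and 402 lower. DESeq2 and limma voom each called 3 genes, Prnp and App in both cases, with Cass4 added by DESeq2 and Fst added by voom.

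Prnp encodes the prion protein, a cell-surface glycoprotein abundant in neurons, and lies at chr2:131909928-131938429 on the plus strand. Its level in the 5 WT libraries was 755, 911, 985, 801 and 775 CPM. The untreated APP/PS1 libraries stood at 2118, 1999, 2042, 1717 and 2153 CPM, and the BCI-838 libraries at 2116, 2160, 1912 and 1712 CPM. With the wheel the level was 2040, 1848, 1915, 1840 and 2388 CPM, and with both treatments 2216, 2008, 2088, 2367 and 2219 CPM. All 19 APP/PS1 libraries lay above all 5 WT libraries, with a gap from 985 to 1712 CPM. The pooled log2 fold change was 1.27 (SE 0.08, 95% interval 1.10 to 1.44), a 2.41-fold difference (adjusted p 3.90e-09, edgeR). Exons of Prnp overlap those of Prn on the same strand, so reads in the shared stretch cannot be given to 1 of them. Whether the reads counted for Prnp came from the endogenous gene or from a transgene construct was not tested.

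App, the gene of the amyloid precursor protein, is at chr16:84949685-85173766 on the minus strand. Its WT level was 1760, 1826, 2073, 1531 and 1452 CPM. Untreated APP/PS1 libraries held 3477, 3112, 3717, 2880 and 3707 CPM, and BCI-838 libraries 3523, 3826, 3550 and 3268 CPM. Wheel libraries held 3005, 2467, 3379, 3436 and 3804 CPM, and libraries with both treatments 4038, 3340, 3878, 4054 and 4026 CPM. The lowest APP/PS1 library, wheel replicate 2, lay above the highest WT library. The pooled log2 fold change of App was 1.02 (SE 0.10, 95% interval 0.81 to 1.22), a 2.02-fold difference (adjusted p 3.81e-06, edgeR). Whether the counted reads came from the endogenous gene or from a transgene was not tested.

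**Figure D1:**
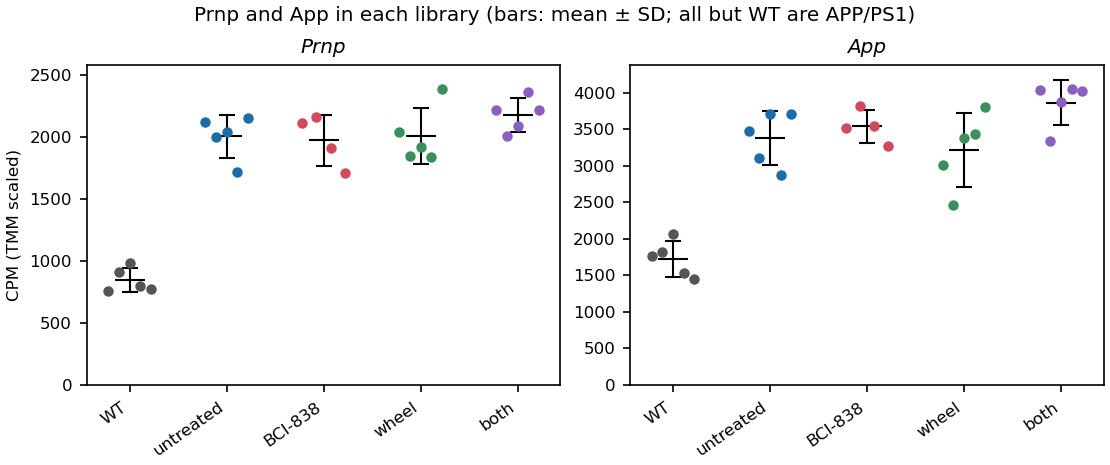
Levels of Prnp and App (vertical axes, CPM from 0) in the 5 WT libraries and the 4 APP/PS1 groups (untreated, BCI-838, wheel, both), 1 point per library, with the mean and SD as bars. For Prnp and App all 19 APP/PS1 libraries sit above all 5 WT libraries.

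The increase of both genes was seen in each APP/PS1 group. These 4 comparisons share the 5 WT libraries, so their values are set side by side only. The log2 fold change of Prnp was 1.25 in untreated, 1.22 in BCI-838, 1.25 in wheel and 1.37 in doubly treated mice. That of App was 0.97, 1.04, 0.90 and 1.16 in the same order. Both were called in every group, with adjusted p-values of at most 0.00067 (edgeR, 24 libraries in 1 fit). In fits of only the 2 groups compared, Prnp was called in every group, and App was not called in untreated (adjusted p 0.0622) or wheel mice (adjusted p 0.1997). A test of the difference among the 4 APP/PS1 groups did not call either gene (adjusted p 0.698 for Prnp and 0.417 for App). The group means ran from 1975 to 2179 CPM for Prnp and from 3218 to 3867 CPM for App.

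Genes with an unadjusted p under 0.05 against WT made up 2.76% in untreated, 7.47% in BCI-838, 9.09% in wheel and 6.32% in doubly treated mice, and those above 0 made up 47.4%, 48.8%, 50.2% and 48.3%.

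The number of genes called against WT in single groups was 2 in untreated mice (0.0109%), 6 on BCI-838 (0.0328%), 2 with the wheel (0.0109%) and 3 with both (0.0164%). In untreated and wheel mice these were Prnp and App. On BCI-838, Cass4 was also higher and Krt20, Krt12 and Wnt9a were also lower, and with both treatments Cass4 was also higher. The call of Cass4 with both treatments (adjusted p 0.0486) was lost in 19 of 24 fits that each left out 1 library and in 6 of 12 other settings, among them voom (0.2198), the dorsal midbrain covariate (0.247) and the replicate number as a block (0.0862). On BCI-838, Krt20 and Krt12 were not called without replicate 3 or replicate 4 of that group or in the fit of those 2 groups alone, and Wnt9a was not called with the block or without any 1 of the 4 BCI-838 libraries, while Cass4 was called in each of these. Prnp and App were also the 2 genes (0.0109%) whose 19 APP/PS1 libraries all lay above the 5 WT libraries, and 0 genes had all 19 below. At least 15 of 19 libraries above every WT library were found for 27 genes (0.148%), and at least 15 below for 24 (0.131%). The 95% interval reached, at the median over genes, 0.24 to each side of the log2 fold change. For 12925 genes (70.7%) that interval lay within a 1.5-fold difference in either direction, and for 15636 (85.5%) within a 2-fold difference.

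**Figure D2:**
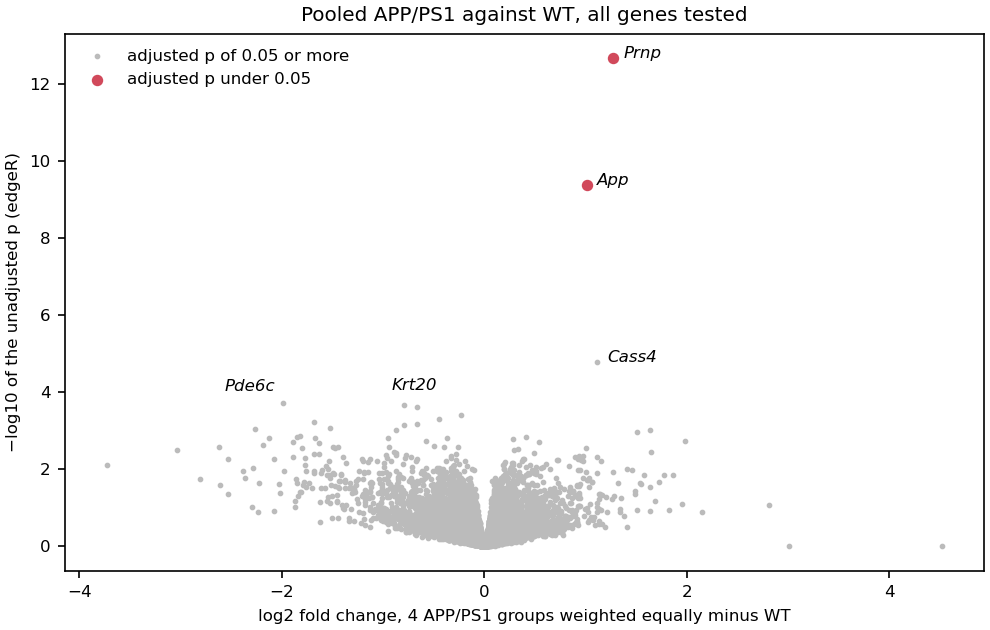
Unadjusted p of the edgeR test, as −log10 (vertical axis), against the log2 fold change of pooled APP/PS1 over WT (horizontal axis), 1 point per gene for 18286 genes. Prnp and App, in red, stand apart from all other genes, and Cass4 is the next point down.

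Cass4, which encodes a scaffold protein of the Cas family linked to focal adhesions, came next by p. It lies at chr2:172393794-172433757, and its WT libraries held 0.969, 0.656, 0.793, 1.24 and 0.772 CPM. On BCI-838 the level was 3.16, 3.26, 2.68 and 2.61 CPM, and with both treatments 3.15, 1.39, 3.35, 2.37 and 1.42 CPM. Untreated libraries held 0.896 to 1.77 CPM and wheel libraries 1.26 to 1.61 CPM. In all, 17 of 19 APP/PS1 libraries lay above every WT library, and those of the BCI-838 group were 2.61 CPM or more. The pooled log2 fold change was 1.12 (SE 0.21), with an adjusted p of 0.103 (edgeR). Cass4 was called by DESeq2 (adjusted p 0.00027), with a choroid plexus covariate (0.0312), without the 4 libraries of high Ttr (0.0277), without the untreated group (0.0235) and without the wheel group (0.0361). It was also called without replicate 2 (0.0228) or replicate 5 (0.0333) of the doubly treated group, and its adjusted p over all single left-out libraries ran from 0.0228 to 0.498. Against WT, its log2 fold change was 0.61 in untreated, 1.72 on BCI-838 (adjusted p 0.00412), 0.74 with the wheel and 1.39 with both (adjusted p 0.0486). The difference of Cass4 among the 4 groups had an adjusted p of 0.0929.

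The other genes of smallest p on the higher side did not pass the test (adjusted p 1.00 for each, edgeR). Rprm, which encodes a p53-induced inhibitor of the cell cycle, held 15.9 to 22 CPM in WT, 27.2 to 65.5 CPM in untreated mice and 21.1 to 44.6 CPM with the wheel. It held 48.2, 157, 132 and 134 CPM on BCI-838 and 73.5, 28, 224, 72.2 and 14.6 CPM with both. Its pooled log2 fold change was 1.63 (SE 0.43), and 17 of 19 libraries exceeded WT. Col6a1, a chain of collagen VI, ran from 3.69 to 19.98 CPM in WT and from 49.6 to 118 CPM on BCI-838, with 10.1 to 39.96 CPM with the wheel (pooled log2 fold change 1.99, SE 0.56). The difference among the groups had an adjusted p of 0.165 for Rprm and 0.167 for Col6a1, and was not called for either gene. Sh2d5, an SH2 domain protein of brain, was at 74.8 to 88.7 CPM in WT and 83.6 to 188 CPM in APP/PS1 (0.42, SE 0.11), and its exons overlap those of Kif17 on the same strand.

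Abcc4, an export pump of the ABC family, held 11.1, 13.6, 11.1, 15.4 and 14.3 CPM in WT, and its group means were 15.8, 16.3, 15.5 and 16.2 CPM in untreated, BCI-838, wheel and doubly treated mice. Its pooled log2 fold change was 0.28 (SE 0.08), and 14 of 19 APP/PS1 libraries lay above every WT library. Its log2 fold change lay between 0.24 and 0.31 in the 4 groups. Slc25a41, a mitochondrial carrier, was higher than every WT library in 16 of 19 (log2 fold change 1.51, SE 0.40), at levels of at most 0.463 CPM and with group values of 1.22 to 2.10. Slc7a4, of the cationic amino acid transporter family, had 0.33 (SE 0.10), with 0.14 in untreated, 0.48 on BCI-838, 0.24 with the wheel and 0.47 with both.

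On the lower side, a pair of neighbouring keratin genes on chromosome 11 came close behind. Krt20 (chr11:99428403-99438150) held 3.43 to 7.45 CPM in WT and 1.13 to 5.04 CPM in APP/PS1, with 14 of 19 libraries below every WT library (log2 fold change -0.79, SE 0.18, adjusted p 0.738). Krt12 (chr11:99415666-99422259) held 16.2 to 30.9 CPM in WT and 6.82 to 22.7 CPM in APP/PS1, with 12 of 19 below (-0.66, SE 0.15, adjusted p 0.738). Both were lowest on BCI-838, at 1.13 to 1.78 CPM for Krt20 and 6.82 to 9.63 CPM for Krt12, where they were called against WT (adjusted p 0.0109 and 0.0158). In the other 3 groups the log2 fold change lay between -0.58 and -0.46 for Krt20 and between -0.50 and -0.41 for Krt12, none called. Fst, the gene of the activin antagonist follistatin, held 1.32, 1.99, 2.44, 3.34 and 4.43 CPM in WT. On BCI-838 it stood at 0.0686 to 0.171 CPM, and with both treatments it stood at 0.0925, 2.80, 0.121, 0.131 and 0.454 CPM, while untreated (0.685 to 3.32 CPM) and wheel libraries (1.06 to 2.65 CPM) overlapped WT. Its pooled log2 fold change was -1.82 (SE 0.49, not called by edgeR), and voom called it (adjusted p 0.0329).

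For the remaining genes with the smallest p on the lower side, 1 WT library lay above all others, and the value moved by more than 1.5 times without it. Tph1, the gene of a tryptophan hydroxylase of serotonin and melatonin synthesis, held 4.96 CPM in WT replicate 1 and at most 0.277 CPM in the other WT libraries. Its pooled log2 fold change of -2.26 became 0.46 without that library. Pde6c, a cone phosphodiesterase subunit, held 2.29 CPM in WT replicate 1 and 0.154 to 0.436 CPM in the others (-1.99, and -0.72 without it). WT replicate 2 was the high library for the rest. Rab37, a small GTPase of secretory vesicles, stood there at 41.4 CPM against 2.54 to 7.73 CPM in the other WT mice (-1.52, and -0.13 without it). Synpo2, an actin-binding protein, stood at 104 CPM against 2.68 to 13.7 CPM (-1.85, and -0.06 without it). The same held for Pdp1, a pyruvate dehydrogenase phosphatase (287 CPM, -0.87 and -0.28), Atp2a1, a calcium pump (8.84 CPM, -1.67 and -0.34), and Kcnk4, a two-pore potassium channel (17.5 CPM, -0.66 and -0.37). WT replicate 2 was also far above the other WT libraries in Prkcd, a marker of the thalamus list, at 447 CPM against 21.2 to 51.0 CPM, while its Pax7 was 0.0386 CPM. The part of such tissue in these values was not tested.

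**Figure D3:**
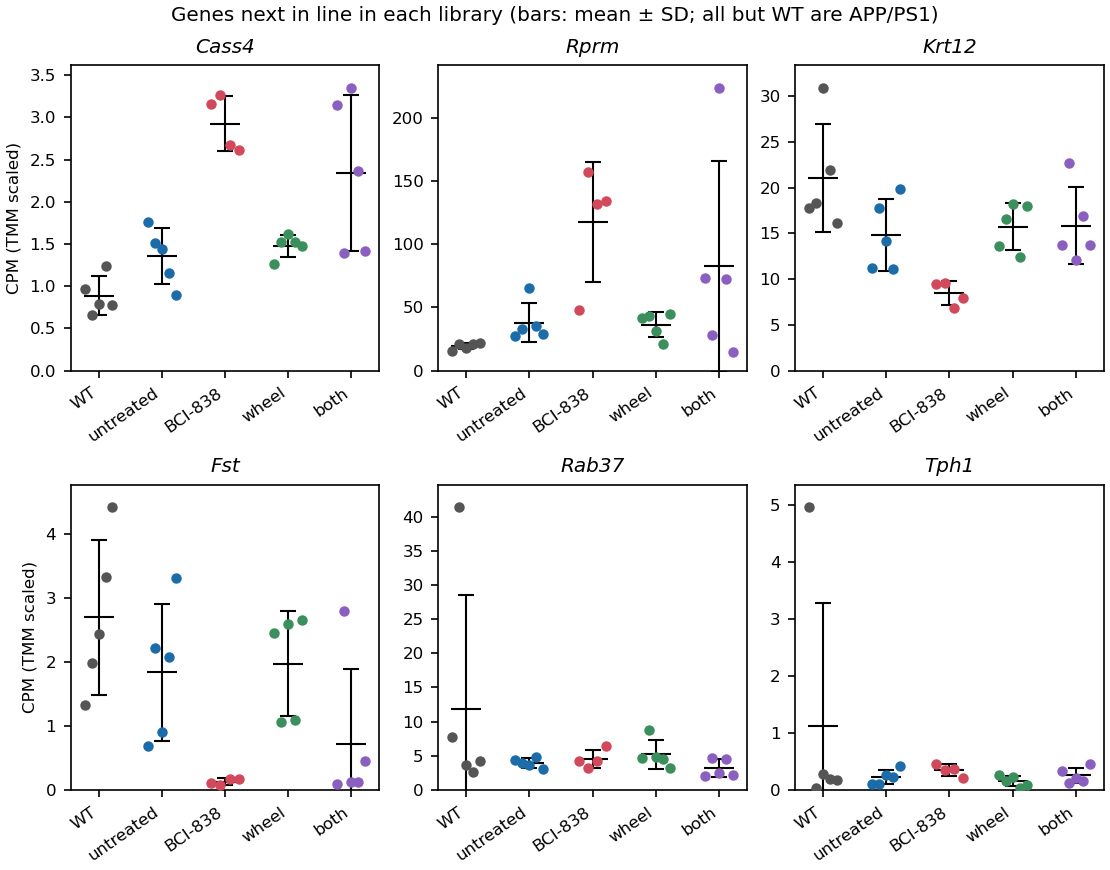
Levels (vertical axes, CPM from 0) of Cass4, Rprm, Krt12, Fst, Rab37 and Tph1 in each library, 1 point per library, with the mean and SD of each group. Cass4 and Rprm have their highest and Krt12 and Fst their lowest group mean on BCI-838, whereas Rab37 and Tph1 each have 1 high WT library, at 41.4 and 4.96 CPM.

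Sulf1 and Lor were called among the groups (0.0109% of genes), and 3202 genes (17.5%) had an unadjusted p under 0.05. Both calls were lost when certain single libraries were left out, among them untreated replicate 4 and wheel replicate 1. DESeq2 called 661 genes among the groups and voom 2192. Sulf1, a sulfatase that edits heparan sulfate at the cell surface, held 6.73, 11.9, 10.4, 26.1 and 17.1 CPM in untreated mice. It held 4.77 to 8.19 CPM on BCI-838, 3.16 to 5.59 CPM with the wheel, 3.47 to 5.57 CPM with both and 3.24 to 7.51 CPM in WT. The 3 highest untreated libraries are those with Ttr above 100 CPM, and Sulf1 was not called without the libraries of high Ttr. Lor, the gene of loricrin, a protein of the cornified cell envelope of skin, held 10.3 to 12.5 CPM on BCI-838 and 18.9 to 24.1 CPM with the wheel, without overlap, and 14 to 17.5 CPM in WT. The pooled log2 fold changes were 0.30 (SE 0.23) for Sulf1 and 0.10 (SE 0.09) for Lor, neither called, and -0.10 for Sulf1 without the untreated group and -0.01 for Lor without the wheel group. Next in line, with an adjusted p of 0.0674 each, were Slc25a28, Mlf1, Penk and Dpy19l3. Penk, the proenkephalin gene, held 20.9 to 43.6 CPM in WT, 14.4 to 32.4 CPM in untreated mice and 22 to 31.3 CPM with the wheel. On BCI-838 it held 42, 230, 218 and 83.6 CPM, and with both treatments 67.5, 26.6, 213, 78.8 and 31.6 CPM.

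Members of the pathway that handles the amyloid precursor protein were not called. Of 26 genes for App-like proteins, secretases, binding partners and amyloid clearance, 0 were called, 8 had a log2 fold change above 0 and 18 below, with a median of -0.04 beside -0.006 for all genes, of which 47.5% were above 0. The number above 0 was 5 without wheel replicate 5 and 13 without WT replicate 3. Among the secretases, Adam10, the main alpha-secretase, stood at 0.09 (SE 0.08), and Bace2, a homologue of beta-secretase, at -0.49 (SE 0.30). Bace2 held 4.86 CPM in WT replicate 2 and 0.961 to 2.33 CPM in the other WT libraries, and its value was 0.05 without that library. Aplp2, an App-like protein, stood at -0.07 (SE 0.06) with group means of 556 to 620 CPM, and at -0.02 without WT replicate 2. Clu, the gene of the secreted chaperone clusterin, had the smallest p of these genes. It held 652 to 899 CPM in WT and 757 to 1020 CPM in APP/PS1, and the ranges overlapped (0.17, SE 0.08, unadjusted p 0.0444). Without WT replicate 2 the value of Clu was 0.11.

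Plaque-responsive glial genes had mostly small positive values, none of them called. Of 56 listed, 55 were measured, 0 were called, 48 had a value above 0 and 7 below, and the median log2 fold change was 0.07. At an unadjusted p under 0.05, 6 were higher and 1 lower. The number above 0 was 41 without WT replicate 2 and 45 to 51 over the other settings. By group, 37 of 55 were above 0 in untreated, 39 on BCI-838, 47 with the wheel and 44 with both, all against the same WT libraries. The summed level of the list was 6446 to 7484 CPM in WT and 6785 to 8486 CPM in APP/PS1. The ranges overlapped.

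Gfap, the intermediate filament of astrocytes, held 389, 339, 298, 516 and 384 CPM in WT. It held 369 to 543 CPM in untreated, 395 to 565 CPM in wheel and 567 to 717 CPM in BCI-838 mice, and 1113, 313, 722, 532 and 479 CPM with both. Only the BCI-838 group lay wholly above WT. The pooled log2 fold change was 0.52 (SE 0.19, unadjusted p 0.0110). C4b, a complement component, held 34.1 to 54.5 CPM in WT and 66.0 to 83.7 CPM on BCI-838, and overlapped WT in the other groups (pooled 0.47, SE 0.17, unadjusted p 0.0107). S100a6, a calcium-binding protein of glia, stood at 0.38 (SE 0.15) and Grn, the gene of progranulin, at 0.10 (SE 0.04). The difference among the 4 groups was not called for Gfap (adjusted p 0.296) or C4b (adjusted p 0.267).

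Of 24 measured genes of disease-associated microglia, 16 were above 0 and 8 below, and none was called, with a median of 0.09. The number above 0 was 13 without WT replicate 2, and the lowest median over single left-out libraries was 0.007. Gpnmb, a glycoprotein of lysosome-rich phagocytes, held 1.98 to 13.5 CPM in WT and 4.43 to 46.5 CPM in APP/PS1 (0.86, SE 0.39), and Lgals3, galectin-3, 0.119 to 1.23 CPM in WT and 0.392 to 1.94 CPM in APP/PS1 (0.83, SE 0.40). Without WT replicate 3 the values of Gpnmb and Lgals3 were 0.60 and 0.56. Trem2, the lipid receptor that this state depends on, held 7.74 to 13.4 CPM in WT and 9 to 13.2 CPM in APP/PS1, no library lying outside the WT range. Cst7, Itgax and Clec7a, markers of that state chosen for mention after their values were seen, stayed at 0.678 CPM or less in every library. Their pooled log2 fold changes were 0.39 (95% interval -0.33 to 1.11), 0.10 (-0.81 to 1.02) and 0.31 (-0.64 to 1.25). The sign of Itgax turned by voom (-0.34), without the libraries of high Ttr (-0.02) and without single libraries. Tyrobp, Axl and Apoe, markers of that state also chosen after their values were seen, had higher levels in every library. Their pooled log2 fold changes were -0.06 (95% interval -0.29 to 0.18), 0.01 (-0.11 to 0.14) and 0.08 (-0.08 to 0.24). Of 16 homeostatic microglial genes, 10 were above 0, with a median of 0.02. P2ry12, a purine receptor of resting microglia, stood at 0.11 (SE 0.08) and Tmem119 at 0.08 (SE 0.09).

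Reactive astrocyte genes were above 0 in 20 of 25, with a median of 0.16 and no call. The number above 0 was 16 without WT replicate 3. Vim, vimentin, held 18.4 to 31.0 CPM in WT and 19.4 to 46.7 CPM in APP/PS1 (0.44, SE 0.16), with group values between 0.28 and 0.51. C3, the central complement component, stood at -0.95 (SE 0.39), and at -0.63 without WT replicate 1, with 0.595 to 4.53 CPM in WT and 0.519 to 6.80 CPM in APP/PS1, so that the ranges overlapped. By group C3 was at 0.14 in untreated, -1.35 on BCI-838, -1.28 with the wheel and -1.31 with both. Of 19 complement genes, 9 were above 0 (median -0.02), and of 26 interferon and antigen presentation genes, 11 (median -0.05), with 6 without WT replicate 3. Resting astrocyte genes were above 0 in 4 of 15 (median -0.03), and in 8 of 15 without WT replicate 1. Of 30 lysosomal genes, 23 were above 0, with a median of 0.04, and 18 were above 0 without WT replicate 4. None of these lists held a called gene.

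**Figure D4:**
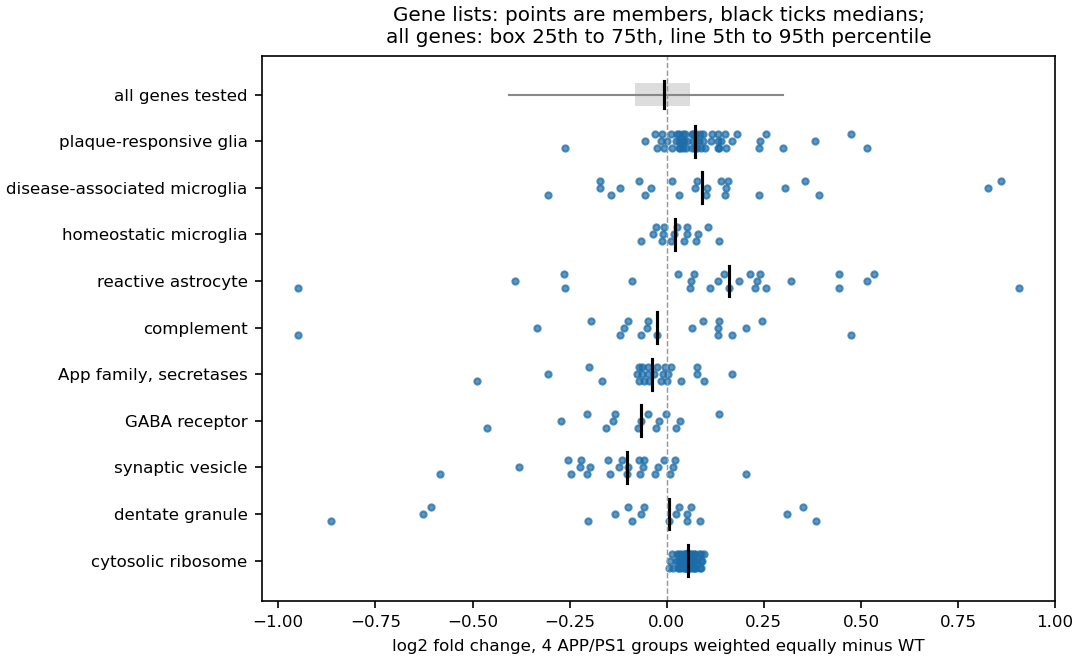
Pooled log2 fold change (horizontal axis) of the measured members of 10 gene lists, 1 point per gene, with the list median as a black tick, above them all genes tested as a box (25th to 75th percentile) and line (5th to 95th). Most plaque-responsive glial genes lie to the right of 0 (48 of 55) and most synaptic vesicle genes to the left (21 of 25), within the spread of all genes apart from a few members.

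Synaptic gene lists held mostly negative values and no call. Synaptic vesicle and release genes were above 0 in 4 of 25 (median -0.10), glutamate receptor and postsynaptic genes in 5 of 29 (median -0.04) and GABA receptor genes in 3 of 15 (median -0.07). The counts were 9 of 25 without WT replicate 3, 13 of 29 without WT replicate 4 and 6 of 15 without WT replicate 2, their highest over single left-out libraries. These counts were not alike in every group: for vesicle genes 2, 5 and 5 of 25 were above 0 in untreated, BCI-838 and wheel mice and 15 of 25 with both. For glutamate receptor and postsynaptic genes the counts were 6, 7, 10 and 23 of 29 in that order, beside CA pyramidal marker counts of 9, 3, 6 and 17 of 21. The part of CA field tissue in these counts was not tested. Gabrd, the delta subunit of extrasynaptic GABA-A receptors of granule cells, held 87.1 CPM in WT replicate 2 and 40.7 to 47.5 CPM in the other WT libraries (-0.46, SE 0.16, and -0.21 without that library). Gabbr2, a GABA-B receptor subunit, likewise had 378 CPM in WT replicate 2 and 204 to 240 CPM in the others (-0.27, SE 0.12, and -0.09 without it). Gabra4, the alpha-4 subunit, went from -0.20 (SE 0.18) to 0.12.

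Granule cell genes showed no shift shared by the groups. Of 19 granule markers, 10 were above 0, with a median of 0.005 and a range of 3 to 15 when single libraries were left out, lowest without WT replicate 3 and highest without WT replicate 4. By group 16 were above 0 in untreated, 6 on BCI-838, 17 with the wheel and 7 with both. Calb1, the calcium buffer calbindin of mature granule cells, held 72.0, 126, 77.9, 120 and 127 CPM in WT. It held 53.4, 28.5, 36.3 and 38.3 CPM on BCI-838 and 49.0, 99.4, 26.0, 28.2 and 63.7 CPM with both. Untreated (45.7 to 155 CPM) and wheel libraries (64.3 to 129 CPM) overlapped WT. Its pooled value of -0.61 (SE 0.25) was therefore an average of -0.04 in untreated, -1.42 on BCI-838, 0.00 with the wheel and -0.97 with both, with an adjusted p of 0.115 for the difference among the groups. Genes linked to granule cell activity were above 0 in 8 of 25 (median -0.12), and in 13 of 25 without WT replicate 3. By group the counts were 4 in untreated, 7 on BCI-838, 6 with the wheel and 17 with both.

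**Figure D5:**
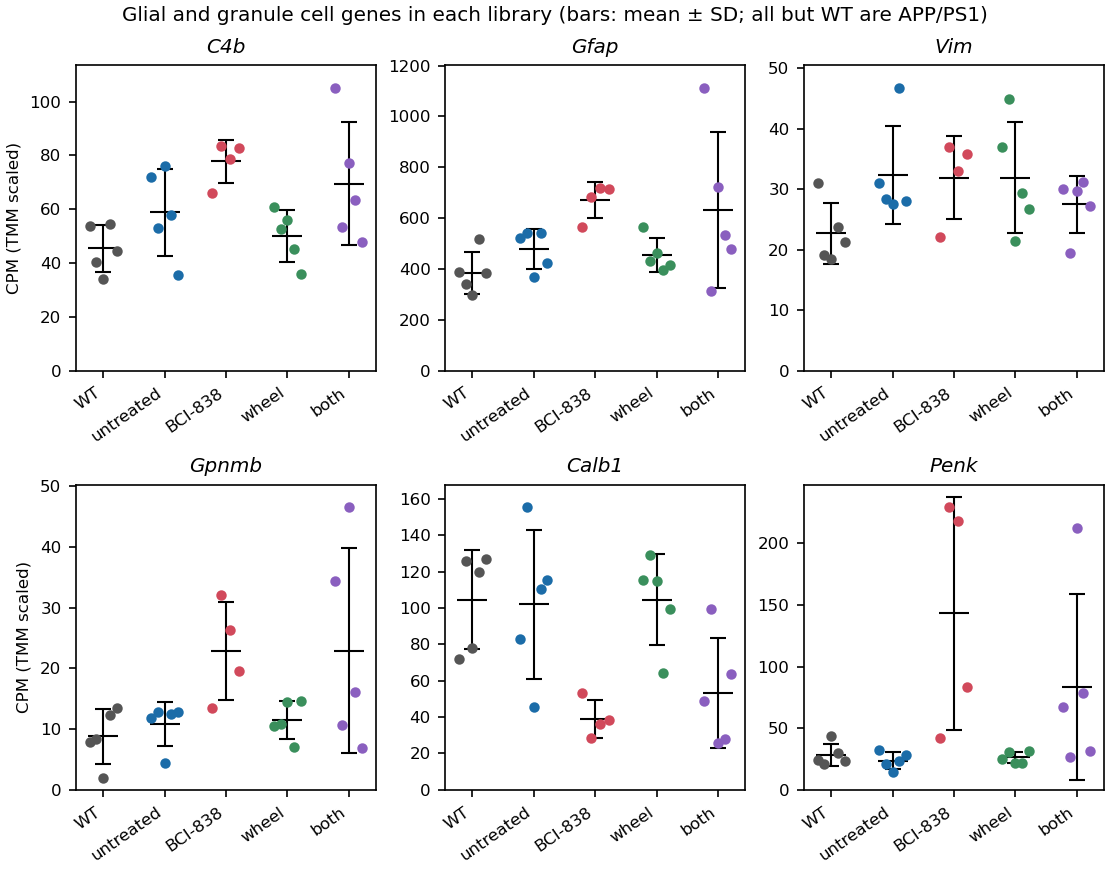
Levels (vertical axes, CPM from 0) of C4b, Gfap, Vim, Gpnmb, Calb1 and Penk in each library, 1 point per library, with the mean and SD of each group. On BCI-838, C4b, Gfap and Calb1 lie wholly outside the WT range, while untreated and wheel libraries overlap WT for all 6 genes.

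Genes of adult neurogenesis were spread around 0. Of 20 stem and progenitor genes, 12 were above 0 (median 0.06), of 20 proliferation genes 14 (median 0.13) and of 21 neuroblast and immature neuron genes 12 (median 0.08), none called. Below 0 were 8, 6 and 9 genes in that order. Over single left-out libraries the counts above 0 were 12 to 14, 12 to 16 and 10 to 14. Id3, Mex3a, Sox11 and Aurkb are named for being among the smallest p of their lists. Id3, a transcriptional inhibitor of differentiation in neural stem cells, held 24.1 to 35.5 CPM in WT and 27.4 to 48.3 CPM in APP/PS1, with 12 of 19 libraries above every WT library and group values of 0.28 to 0.48 (pooled 0.38, SE 0.12, unadjusted p 0.00592). Mex3a, an RNA-binding protein of the neuroblast and immature neuron list, exceeded every WT library in 15 of 19 (0.39, SE 0.13), with 3.61 to 4.60 CPM in WT and 3.49 to 7.4 CPM in APP/PS1. Sox11, a transcription factor of newborn neurons, stood at 0.47 (SE 0.19), with 46.2 to 53.1 CPM on BCI-838 and 14 to 35.3 CPM in WT. Without WT replicate 3 the value of Sox11 was 0.30. Aurkb, a mitotic kinase, stood at 1.01 (SE 0.40) with no level above 0.738 CPM. Dcx, a neuroblast gene chosen for mention after its value was seen, stood at 0.12 (SE 0.16), and its ranges overlapped.

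Lists of other tissue gave counts as large as these. Choroid plexus genes were above 0 in 20 of 21 in the pooled comparison (median 0.60), and in 5 of 21 without the 4 libraries of high Ttr. The summed choroid plexus level was 219 to 316 CPM in WT and 261 to 2628 CPM in untreated APP/PS1 mice. Of the other marker lists, 10 of 14 oligodendrocyte genes, 2 of 11 oligodendrocyte precursor genes, 10 of 16 endothelial genes and 11 of 16 mural genes were above 0, none called. The oligodendrocyte count was 0 of 14 without WT replicate 5. Without WT replicate 3, 5 of 11 precursor genes and 7 of 16 mural genes were above 0. Dorsal midbrain and thalamus genes were above 0 in 6 of 21 (median -0.17), the doubly treated group having 1 of 21. That pooled count was 1 without untreated replicate 1 and 11 without WT replicate 1. The 57 cytosolic ribosomal protein genes were all above 0, at values between 0.0071 and 0.10, none with an unadjusted p under 0.05. Without the wheel group 27 of 57 were above 0, and the wheel group alone had all 57 above 0 with a median of 0.23 beside 0.0007 for all genes.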

How the data were processed

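Whole-number read counts per gene, not normalized, were deposited by the authors for the 24 libraries of the series. STAR, HTSeq and DESeq are the tools, and mm10 the build, named in the submitters' processing notes. Per the labels' protocols total RNA came from snap-frozen hippocampal dentate gyrus. Versions, read layout and strand use were not given in the sources used here, so overlapping genes cannot be told apart with certainty. The authors' normalized table was not used. Rows without a gene name numbered 0.

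The counts were filtered with filterByExpr (minimum count 10, minimum total 15), scaled with TMM and fitted with edgeR 4.0.16 (R 4.3.3), 1 mean per group over 24 libraries, robust quasi-likelihood F test. The pooled contrast was the mean of the 4 APP/PS1 group means minus WT; the 4 single groups against WT and an F test among them used the same fit. Each SE was obtained from the log2 fold change and its F statistic; list scores used a prior count of 2. The fits were tested on simulated data with 100 genes changed 1.5-fold and 100 changed 2-fold. The pooled contrast called 61% and 83% of them in the right direction, with 5 false calls. Each gene was drawn on its own around 1 mean, so tissue differences shared by many genes were not simulated. So many changed genes also ease the adjusted threshold. These shares therefore do not give the power of the real comparison, which called 2 genes. No 2 libraries agreed within sampling noise (lowest chi-square per gene 18.6). Intervals do not correct for the number of genes.

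Alternatives were DESeq size factors, no filter, 1 CPM in 4 libraries, DESeq2 1.42.0, limma 3.58.1 voom with quality weights, 1 sva 3.50.0 surrogate variable, the replicate number as a block, covariates for choroid plexus, dorsal midbrain or CA minus granule genes, 1 mean for all 19 libraries, leaving out a group, a library or the libraries with over 100 CPM of Ttr, and the compared groups alone. The overlap of libraries without high Ttr, the lists under every alternative and 11 further genes of the report were added after seeing the data. Named were App and Prnp, the called genes and the smallest p up to 10 in each direction, genes without overlap, the 6 smallest p among the groups, and the 4 smallest p of each list, without predicted genes; some genes under this rule are not reported here. The libraries, lists and rules were chosen with earlier results of these data known. Coordinates are from GENCODE M21 (GRCm38, which mm10 names).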

Additional observations from a re-analysis of the deposited data

Results flagged for a closer look

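For 54 genes chosen by the naming rule, the libraries of each group were searched for 1 library far from the rest of its group (Dixon's test). Of 270 sets of 4 or 5 libraries, 30 held such a library. Chance gives about 1 in 20 only for sets that were not chosen by their values. Many of these genes were chosen by their p in these same libraries, so the 2 rates cannot be compared. WT replicate 2 was the library apart in 7 sets, WT replicate 1 in 2, WT replicate 3 in 3 and APP/PS1 libraries in 18.

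WT replicate 2 stood high for Rab37 (41.4 CPM), Pdp1 (287 CPM), Synpo2 (104 CPM), Atp2a1 (8.84 CPM), Gabrd (87.1 CPM), Gabbr2 (378 CPM) and Gabra4 (287 CPM). WT replicate 1 stood high for Pde6c (2.29 CPM) and Tph1 (4.96 CPM), and WT replicate 3 for Cck (529 CPM, other WT 174 to 255), S100a6 (11.1 CPM) and Aurkb (0.277 CPM).

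In the untreated APP/PS1 group, replicate 3 was high for Rprm (65.5 CPM) and low for Gpnmb (4.43 CPM), replicate 1 high for Sh2d5 (103 CPM) and replicate 4 high for Vim (46.7 CPM). On BCI-838, replicate 2 was high for C3ar1 (3.16 CPM). With the wheel, replicate 2 was high for Col6a1 (40 CPM) and Aurkb (0.536 CPM), replicate 5 high for Cck (315 CPM) and low for C3ar1 (1.69 CPM), and replicate 4 low for Gabrd (30.6 CPM). With both treatments, replicate 2 was low for App (3340 CPM, others 3880 to 4050) and Adam10 (71.4 CPM) and high for Fst (2.80 CPM) and Ahcyl2 (400 CPM). Replicate 3 of that group was high for Rprm (224 CPM) and Penk (213 CPM), replicate 4 low for Gabbr2 (159 CPM) and replicate 5 low for Grn (53.0 CPM).

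The F test among the APP/PS1 groups in edgeR called Sulf1 (adjusted p 0.0265, highest in untreated mice) and Lor (adjusted p 0.0274, lowest on BCI-838). Neither was called without untreated replicate 4, BCI-838 replicate 3, wheel replicate 1, 3 or 5, or doubly treated replicate 1.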

How the results depend on the processing

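Prnp and App were called in the pooled comparison under all alternatives run for it and without each library in turn, with log2 fold changes of 1.23 to 1.33 and 0.96 to 1.10. The number of genes called there was 2 to 5 over single left-out libraries, the 5 without replicate 2 of the doubly treated group (Fst, Cass4 and Wnt9a added). DESeq2 called 14 genes in untreated, 75 on BCI-838, 6 with the wheel, 11 with both and 661 among the groups; voom called 181 on BCI-838, 468 with the wheel and 2192 among the groups. With 1 surrogate variable there were 44 on BCI-838 and 60 among the groups, and with the CA minus granule covariate 14 and 5. The fit of the compared groups alone called 1 gene in untreated and 1 with the wheel (Prnp, with App lost). Among the groups, the choroid plexus covariate and leaving out the libraries of high Ttr left 1 call each, and without those libraries 1 gene had all APP/PS1 libraries below WT. Over single left-out libraries the counts were 3 to 19 on BCI-838 (19 without replicate 3 of the doubly treated group). They were 2 to 3 in untreated, 2 to 4 with the wheel and 2 to 9 with both (9 without its replicate 2). Among the groups the count ran from 0 to 89 (89 without untreated replicate 3). It was 0 without untreated replicate 4, BCI-838 replicate 3, wheel replicate 1, 3 or 5, or doubly treated replicate 1. Of 57 genes whose pooled log2 fold change was recomputed under the alternatives, those that turned sign were Tph1 (0.46 without WT replicate 1), Bace2 (0.054) and Gabra4 (0.12), both without WT replicate 2, Sulf1 (-0.10 without the untreated group), Lor (-0.013 without the wheel group) and Itgax (-0.34 by voom, -0.021 without the libraries of high Ttr). Over single left-out libraries their lowest values were -2.58 for Tph1, -0.68 for Bace2 and -0.32 for Gabra4, and Itgax ran from -0.082 (without WT replicate 3) to 0.26. Apart from fewer libraries or groups in a fit, the cause was not tested. Replicate numbers are shared by the groups, and whether they pair the mice is not stated in the labels. Over 46 same-number pairs the correlation of deviations ran from -0.38 to 0.40, and 6 libraries correlated best with their own number. These values have no reference for chance and cannot exclude a pairing. With the replicate number as a block the counts were 2 pooled, 2 in untreated, 5 on BCI-838 (Wnt9a lost), 2 with the wheel, 2 with both (Cass4 lost) and 2 among the groups. With these libraries, the 95% interval reached beyond a 2-fold difference for the genes outside the 85.5% given in the report.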
